A study of Homo sapiens with 4 samples.

Results

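H/ACA box snoRNAs were followed in Raji, a human line of malignant B cells that was derived from Burkitt lymphoma and is positive for Epstein-Barr virus. The members are all genes of the deposited count files whose Ensembl identifier maps to a symbol beginning with SNORA and a digit, 186 of 51714 gene identifiers. Of these, 88 had at least 1 read in the 4 libraries, 98 had none, and 40 had enough reads to be tested. R1810A cells were compared with WT cells, with 2 libraries each. Both carried a vector for an HA-tagged large subunit of RNA polymerase II, RPB1, that resists α-amanitin. In R1810A cells alanine replaced an arginine of its C-terminal domain that can be methylated, and in WT cells the subunit was wild-type. All cells were polyclonal batches selected with G418 and then kept in α-amanitin for 10 days, so that transcription rested on the introduced subunit, and total RNA was depleted of ribosomal RNA before sequencing. The question put by the design is whether gene expression changes when this residue cannot be methylated. Whether replicate libraries stem from separate cultures is not stated, and the p-values therefore speak only of library-to-library spread, which may be technical.

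H/ACA snoRNAs are short nuclear RNAs that fold into a pair of hairpins joined by a hinge with the H box and followed by the ACA box close to the 3′ end. Each hairpin can hold a loop that pairs with ribosomal RNA and places 1 uridine in the active site of dyskerin, the pseudouridine synthase of the particle. In human cells most are not transcribed alone: they are cut out of introns of a host gene, often one for a ribosomal protein or a translation factor, and are trimmed from both ends while bound by the core proteins. A few act in other ways. SNORA73B, a copy of U17, is needed for early cleavages that release 18S ribosomal RNA.

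Sequences of the members on which the results turn were taken from GENCODE release 29 (GRCh38), matched by gene identifier. For all 40 tested members the length of this sequence equalled the deposited gene length. Capitals mark the H box candidate, the match to ANANNA nearest the middle of the RNA, and ACA where it stands exactly 3 bases before the end. The first set holds members with large fold changes or high levels.
SNORA33: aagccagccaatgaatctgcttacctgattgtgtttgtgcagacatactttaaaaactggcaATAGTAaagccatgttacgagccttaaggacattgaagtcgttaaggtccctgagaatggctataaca
SNORA55: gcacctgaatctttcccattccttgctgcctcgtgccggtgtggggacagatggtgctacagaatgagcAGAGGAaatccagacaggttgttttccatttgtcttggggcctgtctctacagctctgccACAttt
SNORA23: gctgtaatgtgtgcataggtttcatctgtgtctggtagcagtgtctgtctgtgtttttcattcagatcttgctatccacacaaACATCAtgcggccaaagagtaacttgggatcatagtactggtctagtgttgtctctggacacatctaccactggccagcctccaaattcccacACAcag
SNORA52: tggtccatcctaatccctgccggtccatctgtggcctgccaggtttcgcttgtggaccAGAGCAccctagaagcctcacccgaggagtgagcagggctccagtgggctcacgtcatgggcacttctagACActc
SNORA48: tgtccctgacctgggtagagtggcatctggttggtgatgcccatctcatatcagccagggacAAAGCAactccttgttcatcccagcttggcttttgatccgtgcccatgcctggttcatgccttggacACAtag
SNORA64: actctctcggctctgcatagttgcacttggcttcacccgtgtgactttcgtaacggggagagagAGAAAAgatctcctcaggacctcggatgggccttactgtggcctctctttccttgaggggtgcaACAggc
SNORA65: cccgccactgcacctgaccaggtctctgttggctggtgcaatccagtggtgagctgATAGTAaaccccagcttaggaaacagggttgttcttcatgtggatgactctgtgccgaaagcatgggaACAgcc
SNORA73B: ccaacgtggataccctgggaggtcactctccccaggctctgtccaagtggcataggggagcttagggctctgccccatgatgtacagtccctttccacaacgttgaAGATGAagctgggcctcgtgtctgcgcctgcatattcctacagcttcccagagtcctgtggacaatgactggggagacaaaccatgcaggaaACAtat
SNORA33 lies at chr6:132817219-132817348, plus strand, in an intron of RPS12. SNORA55 lies at chr1:39567374-39567508, minus strand, in an intron of PABPC4, and SNORA23 at chr11:9428773-9428954, plus strand, in an intron of IPO7. SNORA73B lies at chr1:28508559-28508762, plus strand, in an intron of SNHG3. A further set shows copies within families that carried different values.
SNORA80A: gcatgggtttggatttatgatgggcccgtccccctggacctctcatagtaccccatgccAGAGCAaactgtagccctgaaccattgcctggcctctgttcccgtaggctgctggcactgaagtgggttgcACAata
SNORA80B: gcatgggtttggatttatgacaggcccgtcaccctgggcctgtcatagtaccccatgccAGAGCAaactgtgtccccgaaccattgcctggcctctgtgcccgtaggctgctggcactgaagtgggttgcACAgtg
SNORA80D: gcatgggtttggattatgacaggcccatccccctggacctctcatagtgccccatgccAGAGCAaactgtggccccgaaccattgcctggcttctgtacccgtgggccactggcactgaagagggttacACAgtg
SNORA80E: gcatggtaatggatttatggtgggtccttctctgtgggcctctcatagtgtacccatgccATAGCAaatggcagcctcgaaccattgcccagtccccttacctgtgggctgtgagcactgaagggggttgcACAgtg
SNORA31: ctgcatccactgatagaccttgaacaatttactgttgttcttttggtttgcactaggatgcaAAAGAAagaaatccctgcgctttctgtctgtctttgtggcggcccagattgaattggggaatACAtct
SNORA31B: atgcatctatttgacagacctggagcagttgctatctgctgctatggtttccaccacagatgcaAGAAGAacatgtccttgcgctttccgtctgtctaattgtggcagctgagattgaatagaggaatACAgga
SNORA71C: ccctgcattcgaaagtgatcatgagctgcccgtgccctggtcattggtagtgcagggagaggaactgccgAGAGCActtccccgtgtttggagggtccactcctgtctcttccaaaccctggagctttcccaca
SNORA71D: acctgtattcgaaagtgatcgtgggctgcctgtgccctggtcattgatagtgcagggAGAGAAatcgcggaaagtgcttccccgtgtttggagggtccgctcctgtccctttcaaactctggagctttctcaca
The sense strand of the tested members held ACA in that place in 30 of 40 (75.0%), against 5.12% of 3710 other small RNA transcripts of 100 to 260 bases in the same annotation. A match to ANANNA within the middle 30% of the RNA was present in 37 of 40 (92.5%), but also in 57.1% of the other transcripts. In SNORA33, SNORA71C and SNORA71D the annotated sequence itself ends with aca, which the search did not count. Members with the placed ACA had a median log2 fold change of 1.82 and 15 of 30 passed the test described next, against 1.83 and 1 of 10 for those without it. Whether these groups differ was not tested.

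Reads at the 186 genes made up 0.402% of all gene counts in R1810A replicate 1 (95% exact interval 0.394 to 0.411%) and 0.243% in replicate 2 (0.236 to 0.249%). They made up 0.125% in WT replicate 1 (0.120 to 0.130%) and 0.117% in replicate 2 (0.114 to 0.121%). The intervals cover counting error only. The groups thus did not overlap, and the libraries of R1810A differed from each other by more than their counting error. The means were 0.322 ± 0.113% in R1810A and 0.121 ± 0.00532% in WT (SD, n = 2), 2.66-fold apart, with an exact two-sided permutation p = 0.333, the smallest that 2 against 2 libraries allow. Reads at SNORA73B alone were 40.6% and 43.7% of the H/ACA reads in R1810A and 60.03% and 49.8% in WT. Without SNORA73B the share was 0.239% and 0.136% in R1810A and 0.04996% and 0.0590% in WT, 3.45-fold apart by the means. The difference in share for all members, 0.201 percentage points, was 0.121 without R1810A replicate 1.

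**Figure D1:**
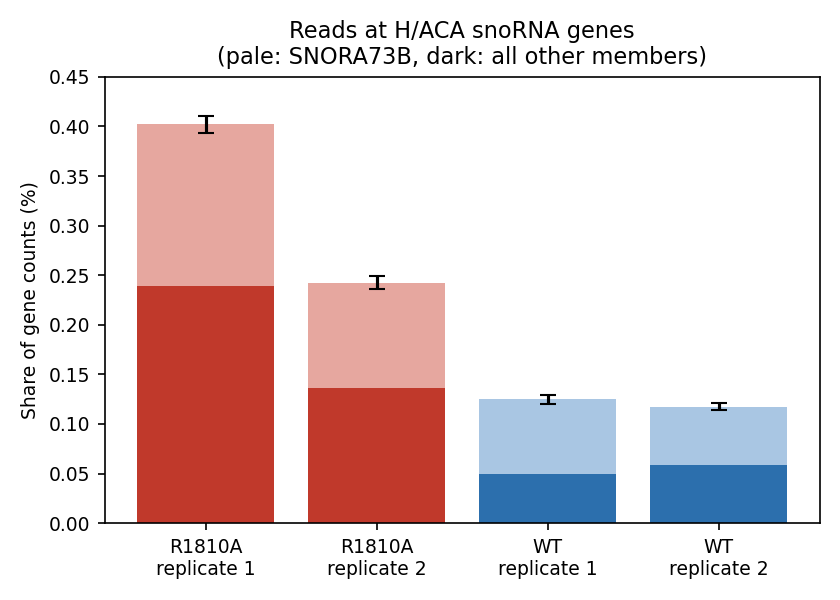
Share of all gene counts (%) that fell on H/ACA snoRNA genes in each of the 4 libraries. Pale parts are SNORA73B, dark parts all other members, and the bars on top are 95% exact intervals of the whole. R1810A replicate 1 reached 0.402%, replicate 2 0.243%, and both WT libraries lay at or below 0.125%.

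The level of each gene is given in CPM, its reads relative to the TMM-scaled size of the library, and R1810A was compared with WT by the quasi-likelihood test of edgeR over all genes that passed its filter on low counts, with a Benjamini-Hochberg adjusted p under 0.05 as the threshold. By this test 16 of the 40 tested H/ACA snoRNA genes rose in R1810A and none fell. Over all 10674 genes tested, 0.347% were called higher and 0.00937% lower, 0.356% in either direction. Among the 107 other tested genes under 300 bases, 19 (17.8%) were called higher, so calls were also frequent among other short genes. At an unadjusted p under 0.05, 37 members were higher and none was lower, while 4.94% of all genes were higher and 3.06% lower. DESeq2, run on all genes with a read, called 16 members higher and none lower, but not the same 16. SNORA80A and SNORA38 lost the call there, and SNORA3A gained it (adjusted p = 0.0049). The DESeq2 count and those with a library left out can take in members outside the 40 tested. Without WT replicate 2 only 1 member, SNORA79B, was called, and without R1810A replicate 2 there were 32. All 40 fold changes were above 0 on the log2 scale, running from 0.49 for SNORA71C to 3.37 for SNORA55 with a median of 1.82, whereas 49.4% of all tested genes were above 0, with a median of -0.00. The filter asks for about 10 reads in at least 2 libraries, so a member can enter through R1810A alone. Of the 40, 31 met that level in both WT libraries, and among these 14 were called. The other 2 called members, SNORA55 and SNORA38, did not meet it in both WT libraries. With no filter, 79 of the 88 members with a read had a fold change above 0 and 28 were called. In that fit 78 genes in all were called higher, and the median log2 fold change of all genes was -0.02. The shares of all genes called and above 0 were not computed for it.

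Just inside the filter stood SNORA63D, a copy of E3 with 10 and 14 reads in R1810A, against 5 and 3 reads in WT (adjusted p = 0.352). Just outside it stood SNORA80E, with 75 and 9 reads in R1810A, against 4 and 6 reads in WT, which was high in a single library. The 48 untested members with reads held 271 and 107 reads in R1810A and 52 and 77 in WT. In 36 of the 40 tested genes each R1810A library exceeded each WT library, as it did in 19.8% of all tested genes. The groups overlapped in the other 4, SNORA74B, SNORA12, SNORA18 and SNORA68, which were named after their values were seen.

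**Figure D2:**
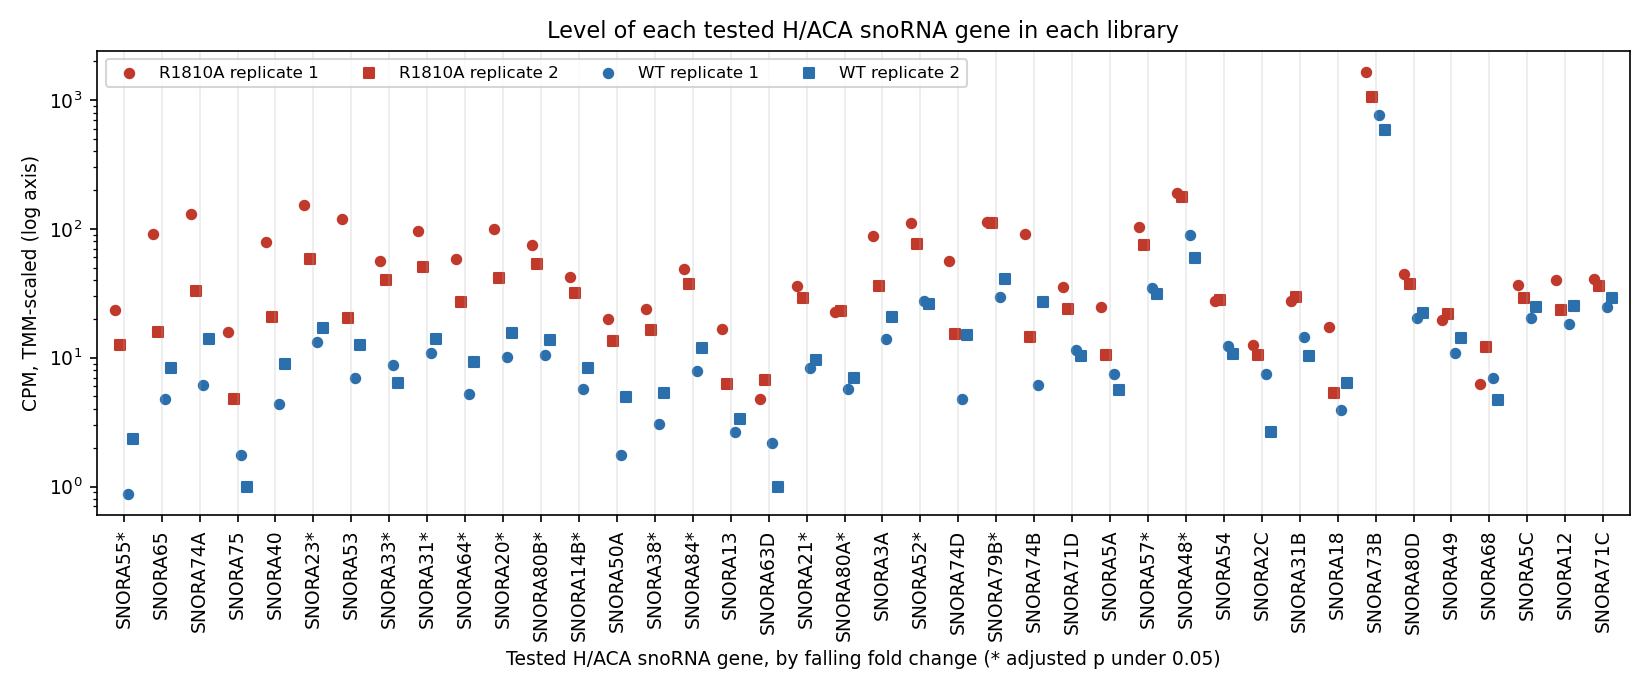
Level in CPM (log axis) of the 40 tested H/ACA snoRNA genes in each library, ordered by falling fold change, with R1810A libraries left of WT libraries and an asterisk at the 16 genes past the threshold. R1810A points lie above WT points except at SNORA74B, SNORA12, SNORA18 and SNORA68, and R1810A replicate 1 is often far above replicate 2.

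Guides of 28S ribosomal RNA numbered 11 among the tested members whose target is known well enough to be assigned here, and 6 of them rose. SNORA33 had 56.6 and 39.9 CPM in R1810A, against 8.76 and 6.33 CPM in WT (log2 fold change 2.69, SE 0.28, adjusted p = 0.0016). No library of R1810A came near the WT range, and the annotated host is RPS12, a protein gene of the small ribosomal subunit. SNORA52, within RPLP2, had 110.3 and 76.0 CPM in R1810A, against 27.6 and 26.3 CPM in WT (log2 fold change 1.79, SE 0.20, adjusted p = 0.0023), with WT libraries that nearly coincided. SNORA48, within the gene of the translation initiation helicase EIF4A1, had 190.4 and 178 CPM in R1810A, against 90.3 and 59.9 CPM in WT (log2 fold change 1.31, SE 0.17, adjusted p = 0.006). It was the second most abundant member, and its R1810A libraries differed little. SNORA21, within RPL23, had 36.0 and 28.9 CPM in R1810A, against 8.33 and 9.65 CPM in WT (log2 fold change 1.83, SE 0.25, adjusted p = 0.01). SNORA23, within the import receptor gene IPO7, had 153 and 58.2 CPM in R1810A, against 13.1 and 17.0 CPM in WT (log2 fold change 2.79, SE 0.40, adjusted p = 0.012). SNORA64, within RPS2, had 58.5 and 26.9 CPM in R1810A, against 5.26 and 9.32 CPM in WT (log2 fold change 2.50, SE 0.39, adjusted p = 0.022). The R1810A libraries of these last members lay far apart, and without replicate 1 their log2 fold changes were 1.93 and 1.84. With limma-voom neither passed (adjusted p = 0.074 for SNORA23 and 0.090 for SNORA64).

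The other 5 guides of 28S RNA did not pass. SNORA74A, a copy of U19, had 130.4 and 33.2 CPM in R1810A, against 6.13 and 14.0 CPM in WT (log2 fold change 2.96, SE 0.56, adjusted p = 0.061). SNORA65 within RPL12 had 91.6 and 15.9 CPM in R1810A, against 4.82 and 8.32 CPM in WT (log2 fold change 2.98, SE 0.67, adjusted p = 0.129). Both were high chiefly in R1810A replicate 1. SNORA74B had 91.1 and 14.4 CPM in R1810A, against 6.13 and 27.0 CPM in WT, so that R1810A replicate 2 lay below WT replicate 2. Its log2 fold change was 1.59 with all libraries (adjusted p = 0.594) and -0.26 without R1810A replicate 1. SNORA54 within NAP1L4 had 27.3 and 27.9 CPM in R1810A, against 12.3 and 10.7 CPM in WT, with close agreement inside each group (log2 fold change 1.27, SE 0.24, adjusted p = 0.06), and SNORA68 had 13 and 25 reads in R1810A, against 16 and 14 reads in WT (log2 fold change 0.67, SE 0.42, adjusted p = 0.716).

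Guides of 18S ribosomal RNA numbered 8 among those tested. Of these 4 rose, and the median log2 fold change was 2.07. SNORA55, in the gene of the poly(A) binding protein PABPC4, had 49 and 26 reads in R1810A, against 2 and 7 reads in WT (log2 fold change 3.37, SE 0.50, adjusted p = 0.014). This is the largest fold change among the tested members, on very few WT reads. SNORA55 passed the filter only through its R1810A libraries, where it is high, so its rank is no independent result. SNORA14B, within TOMM20, had 42.2 and 31.8 CPM in R1810A, against 5.70 and 8.32 CPM in WT (log2 fold change 2.36, SE 0.28, adjusted p = 0.0037). SNORA20, within the chaperonin gene TCP1, had 100.2 and 41.4 CPM in R1810A, against 10.1 and 15.6 CPM in WT (log2 fold change 2.43, SE 0.38, adjusted p = 0.022), but did not pass with limma-voom (adjusted p = 0.094) or without WT replicate 1 (0.052). SNORA57, within CSKMT, had 104 and 74.6 CPM in R1810A, against 34.6 and 31.0 CPM in WT (log2 fold change 1.45, SE 0.19, adjusted p = 0.006). SNORA57 lies opposite LBHD1 on the other strand, and the use of strand in counting is not given in the sources used here. Among the 4 that did not pass were both tested copies of U71, which lie in introns of SNHG17: SNORA71D had 35.5 and 24.1 CPM in R1810A, against 11.4 and 10.3 CPM in WT (adjusted p = 0.058), and SNORA71C had 40.8 and 36.1 CPM in R1810A, against 24.98 and 29.3 CPM in WT (adjusted p = 0.547). SNORA13, which directs the uridine of 18S RNA that later becomes hypermodified, had 35 and 13 reads in R1810A, against 6 and 10 reads in WT (adjusted p = 0.257). SNORA50A had 42 and 28 reads in R1810A, against 4 and 15 reads in WT (adjusted p = 0.064).

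SNORA73B, which acts in ribosomal RNA processing, was by far the most abundant member, at 1656 and 1062 CPM in R1810A, against 765 and 582 CPM in WT. Its difference missed the threshold (log2 fold change 1.01, SE 0.19, adjusted p = 0.061). Without R1810A replicate 1 the log2 fold change was 0.66. Its groups did not overlap.

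Members to which no target was assigned numbered 20, with a median log2 fold change of 1.80, and 6 rose. SNORA80B, within the ornithine decarboxylase gene ODC1, had 74.3 and 52.9 CPM in R1810A, against 10.52 and 13.6 CPM in WT (log2 fold change 2.37, SE 0.24, adjusted p = 0.0016). SNORA79B, within CCNB1IP1, had 112 and 111 CPM in R1810A, against 29.4 and 40.6 CPM in WT (log2 fold change 1.66, SE 0.17, adjusted p = 0.0016), with nearly equal R1810A libraries. SNORA31, within TPT1, had 95.9 and 50.5 CPM in R1810A, against 10.95 and 14.0 CPM in WT (log2 fold change 2.53, SE 0.31, adjusted p = 0.004). SNORA84, within the tRNA synthetase gene IARS1, had 48.9 and 37.5 CPM in R1810A, against 7.89 and 12.0 CPM in WT (log2 fold change 2.09, SE 0.26, adjusted p = 0.0053). Of lower level were SNORA80A within URB1, with 47 and 48 reads in R1810A, against 13 and 21 reads in WT (adjusted p = 0.018), and SNORA38 within PRRC2A, with 50 and 34 reads in R1810A, against 7 and 16 reads in WT (adjusted p = 0.027). SNORA80A and SNORA38 lost the call with DESeq2 (adjusted p = 0.133 and 0.076), and SNORA38 also with limma-voom (0.074) and without R1810A replicate 1 (0.070). Among those that did not pass, SNORA53, within SLC25A3 and the longest tested member at 249 bases, had 119 and 20.2 CPM in R1810A, against 7.01 and 12.7 CPM in WT (log2 fold change 2.77, SE 0.65, adjusted p = 0.161). SNORA3A, within RPL27A, had 88.7 and 36.1 CPM in R1810A, against 14.0 and 20.6 CPM in WT (log2 fold change 1.82, SE 0.37, adjusted p = 0.075), and SNORA40, within TAF1D, had 78.6 and 20.7 CPM in R1810A, against 4.38 and 8.99 CPM in WT (log2 fold change 2.83, SE 0.56, adjusted p = 0.069). The groups did not overlap in these members, but R1810A replicate 2 lay far below replicate 1 in SNORA53 and SNORA40. The lowest estimates in this set were those of SNORA12, SNORA5C and SNORA49. SNORA12 had 39.8 and 23.6 CPM in R1810A, against 18.4 and 25.3 CPM in WT (log2 fold change 0.52, adjusted p = 0.659). SNORA5C had 36.4 and 28.9 CPM in R1810A, against 20.2 and 24.97 CPM in WT (log2 fold change 0.52, adjusted p = 0.594). SNORA49 had 19.7 and 21.6 CPM in R1810A, against 10.95 and 14.3 CPM in WT (log2 fold change 0.69, adjusted p = 0.523), so that in the last pair of genes the groups came close and in SNORA12 they overlapped. The guides of 28S RNA had a median log2 fold change of 1.83, and a difference between the target classes was not tested.

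Every tested member lay inside another gene on the same strand in the annotation. The host was a ribosomal protein gene for 7, a gene of a translation factor for 2, another protein-coding gene for 24 and a noncoding gene for 7. Members called were 4 of 7, 2 of 2, 10 of 24 and 0 of 7 in these classes, with median log2 fold changes of 1.83, 2.34, 1.74 and 1.78. The noncoding class therefore had a median near that of the others although none of its members passed, and no difference between classes was tested. Of its members, SNORA73B, SNORA71C and SNORA71D were described above, and SNORA74A and SNORA74D share the host SNHG4. None of the 55 members without a host gene was tested, and 8 of them had a read.

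The host genes of the members did not pass the test. Of 32 different hosts tested, none was called with edgeR, DESeq2 or limma-voom, their median log2 fold change was 0.09, and the range was -0.51 for CSKMT to 0.60 for RPS2. At an unadjusted p under 0.05, 6 of the 32 (18.8%) were higher in R1810A and 0 lower, against 4.94% higher and 3.06% lower among all genes, and the lowest adjusted p was 0.271. RPLP2 was among the 6. ODC1, host of SNORA80B, had 1648 and 1740 reads in R1810A, against 1953 and 2501 reads in WT (log2 fold change -0.05, SE 0.11, adjusted p = 0.927). TCP1, host of SNORA20, had 231 and 236 reads in R1810A, against 255 and 362 reads in WT (log2 fold change -0.05, SE 0.12, adjusted p = 0.938). TPT1 had 1397 and 1252 reads in R1810A, against 1452 and 1632 reads in WT (log2 fold change 0.11, SE 0.12, adjusted p = 0.841). RPLP2 had 428 and 380 reads in R1810A, against 336 and 434 reads in WT (log2 fold change 0.41, SE 0.12, adjusted p = 0.278). In CPM these hosts differed between the groups by far less than their snoRNAs. RPS12 and RPS2, genes with many processed copies, had few reads: RPS2 had 16 and 13 reads in R1810A, against 13 and 11 reads in WT, so their fold changes carry wide errors. In all 36 pairs with a tested host the member's log2 fold change was above that of its host.

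**Figure D3:**
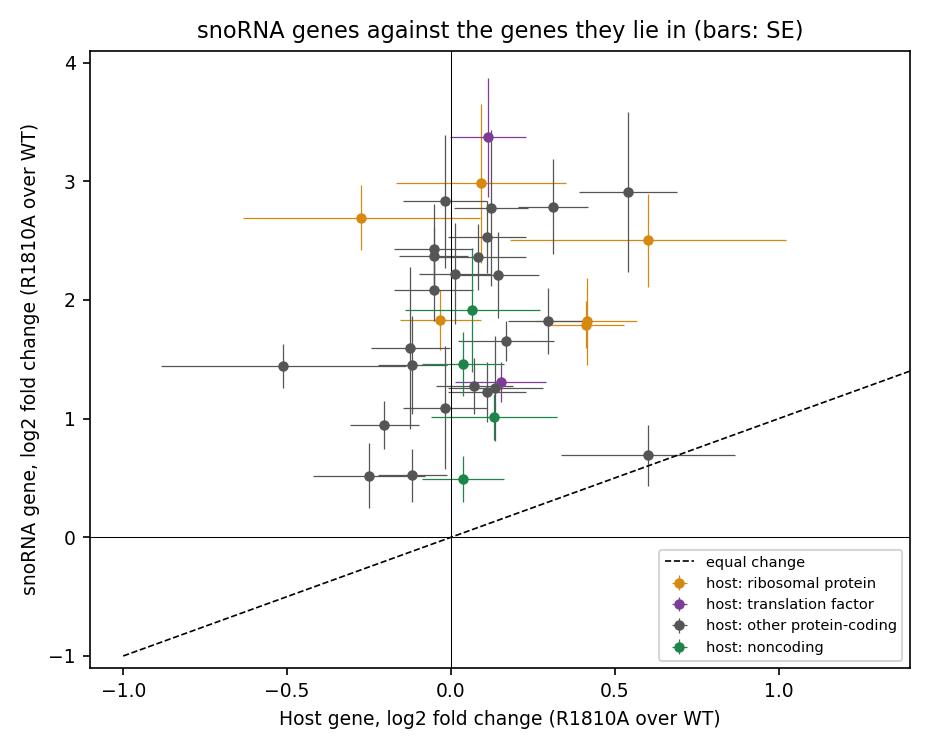
Log2 fold change (R1810A over WT) of 36 H/ACA snoRNA genes on the vertical axis against that of the gene each lies in on the horizontal axis, with SE bars and colours for the host class. All points lie above the dashed line of equal change, and the hosts stay between -0.51 and 0.60.

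The ratio of snoRNA reads to host reads within a library does not depend on the scaling between libraries. On the log2 scale, with 1 added to each count, this ratio was higher in both R1810A libraries than in both WT libraries in 34 of 38 pairs, with a median difference of 1.54. For single genes in CPM the same held in 19.8% of all genes tested. For SNORA80B and ODC1 it was -3.40 and -3.97 in R1810A, against -6.29 and -5.90 in WT. For SNORA31 and TPT1 it was -2.80 and -3.56 in R1810A, against -5.80 and -5.25 in WT, and for SNORA48 and EIF4A1 0.71 and 0.57 in R1810A, against -0.40 and -0.65 in WT. Among the 4 pairs that overlapped were SNORA74B with ATP6V0E1, SNORA49 with EP400 and SNORA18 with TAF1D. Per length, by group means of the authors' RPKM, 38 of 38 members stood above their host in R1810A and 27 of 38 in WT. R1810A replicate 1, mostly the higher library, weighs most in the R1810A means, and single libraries were not counted. SNORA80B was at 239.8 RPKM in R1810A and 49.4 RPKM in WT, and ODC1 at 140.1 RPKM in R1810A and 158 RPKM in WT. SNORA53 was at 144 RPKM in R1810A and 22.0 RPKM in WT, and its host SLC25A3 at 99.2 RPKM in R1810A and 99.2 RPKM in WT. By these means both snoRNAs stood above their host per length in R1810A and below it in WT. For SNORA53 this rested on R1810A replicate 1, and in R1810A replicate 2 alone it lay below its host per length. Its log2 read ratio to SLC25A3 was -1.79 and -4.19 in R1810A, against -5.70 and -4.71 in WT. In the annotation 27 tested members lay wholly in introns and 13 overlapped an exon of some host transcript, for which host and snoRNA reads may be shared. The median log2 fold change was 1.82 in each of these sets, with 9 and 7 members called.

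Copies of 1 snoRNA can share reads, and how reads that match several places were counted is not given in the sources used here. SNORA70 had 33 genes and 16 reads in all libraries together, and the 6 SNORA62 genes had none. Such families could not be measured here. SNORA6, SNORA27, SNORA29, SNORA32, SNORA56 and SNORA81, each the only gene of its number, also had no read. These overlap exons of RPSA, RPL21, TCP1, TAF1D, DKC1 and EIF4A2, which had reads. Host exons were overlapped by 13 tested members too, and SNORA59A in an intron of VPS13D had no read. Why these genes had none was not tested. With the reads of all genes of a number added up, 33 families or single genes were tested and 15 rose, against 0.337% of all features called higher in that fit. Without WT replicate 2 the count was 1, and without R1810A replicate 2 it was 28. SNORA31 summed to 257 and 167 reads in R1810A and 58 and 73 in WT (log2 fold change 2.03, SE 0.21, adjusted p = 0.0014). SNORA80 summed to 379 and 249 reads in R1810A and 89 and 140 in WT (1.81, SE 0.20, adjusted p = 0.0020). SNORA71 with 160 and 126 reads in R1810A, against 84 and 120 in WT, did not pass (0.83, SE 0.17, adjusted p = 0.077), nor did SNORA5 (0.79, SE 0.22, adjusted p = 0.277). SNORA74 summed to 579 and 131 reads in R1810A and 39 and 168 in WT, or 278 and 63.0 CPM in R1810A and 17.1 and 55.9 CPM in WT, so that R1810A replicate 2 lay close to WT replicate 2. Its log2 fold change was 2.16 (SE 0.58, adjusted p = 0.250), and 0.74 when R1810A replicate 1 was left out.

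Copies of a family had unequal estimates. SNORA80A and SNORA80B, whose sequences are printed above, were identical at 91.9% of aligned positions, and both rose. SNORA80D, 89.7% identical to SNORA80B, had 44.6 and 37.5 CPM in R1810A, against 20.2 and 22.3 CPM in WT (log2 fold change 0.94, SE 0.20, adjusted p = 0.097). SNORA80E, 76.3% identical to SNORA80B, was the untested copy that was high in R1810A replicate 1 alone. All 4 lie in different host genes, URB1, ODC1, AIMP2 and KHDC4. SNORA31 and SNORA31B both lie in TPT1 and were 72.8% identical: SNORA31B had 27.3 and 29.8 CPM in R1810A, against 14.5 and 10.3 CPM in WT (log2 fold change 1.22, SE 0.25, adjusted p = 0.083). In WT the levels of these 2 copies were close, and in R1810A both libraries were lower for SNORA31B than for SNORA31. SNORA71C and SNORA71D, both in SNHG17 and 86.6% identical, had log2 fold changes of 0.49 and 1.46. SNORA5A and SNORA5C, both in TBRG4, had 1.45 and 0.52. Differences between copies were not tested.

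**Figure D4:**
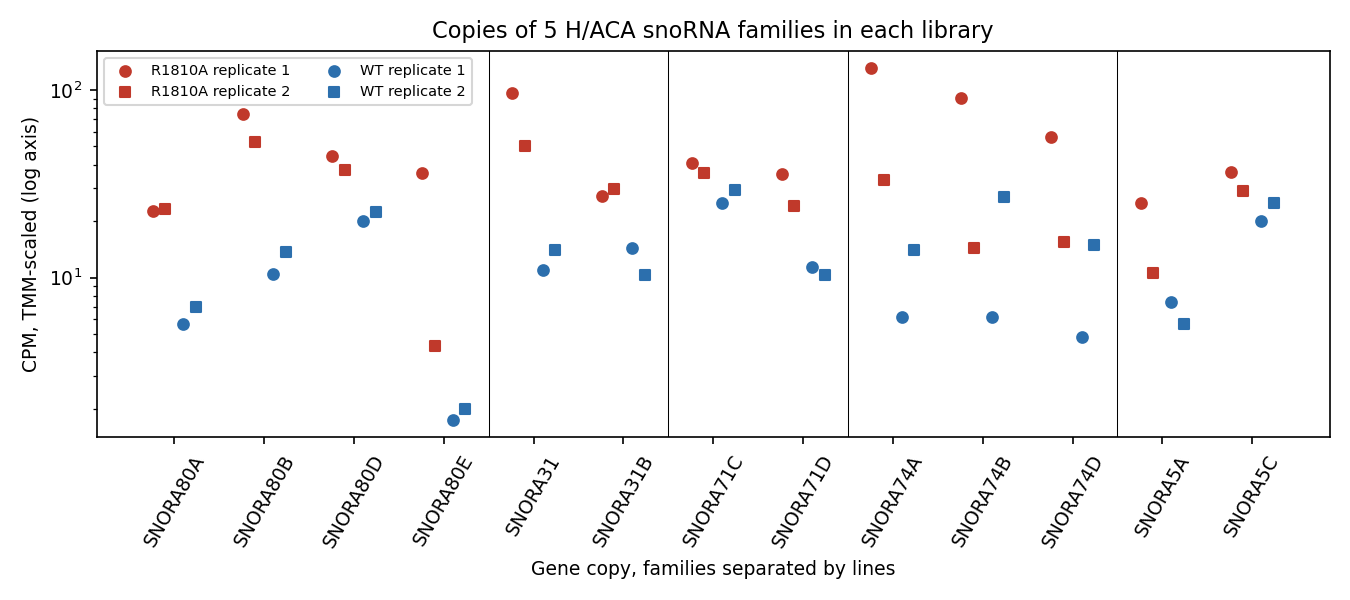
Level in CPM (log axis) of 13 gene copies from 5 H/ACA snoRNA families in each library, R1810A left of WT. SNORA80A and SNORA80B separate the groups widely, SNORA71C and SNORA5C narrowly, and the SNORA74 copies spread over a wide range inside both groups.

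The spread inside the groups was uneven. R1810A replicate 1 lay above replicate 2 in 34 of the 40 tested members, by 1.47-fold at the median, and WT replicate 2 lay above WT replicate 1 in 27. For all tested genes the median log2 ratio of R1810A replicate 1 to replicate 2, with 1 added to each CPM, was -0.004. In 8 members R1810A replicate 1 exceeded replicate 2 at least 3-fold: SNORA74A, SNORA74B, SNORA74D, SNORA65, SNORA53, SNORA40, SNORA75 and SNORA18. None of these passed, although their median log2 fold change was 2.80, and in 7 of them WT replicate 2 lay above WT replicate 1. Across the 40 members the log2 ratio of replicate 1 to replicate 2 in R1810A ran against that in WT, with Pearson's r = -0.58 and Spearman's rho = -0.60, given as a description of points that share 4 libraries and their depth. In log2 CPM with a small count added, Pearson's r was -0.62 over the 40 members and -0.04 over all 10674 tested genes.

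**Figure D5:**
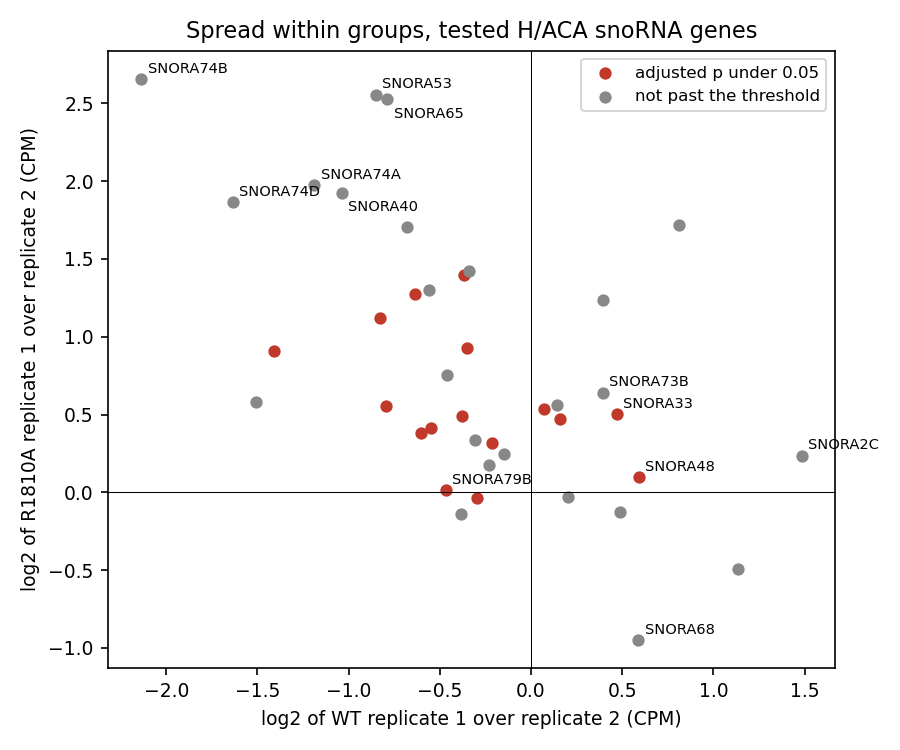
Log2 ratio of replicate 1 to replicate 2 within R1810A (vertical) and within WT (horizontal) for the 40 tested H/ACA snoRNA genes, in red where the adjusted p was under 0.05. SNORA74B, SNORA53, SNORA65, SNORA74D and SNORA74A lie at upper left, high in R1810A replicate 1 and in WT replicate 2.

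Set against the mean of the WT libraries, the median fold over the tested members was 4.49 for R1810A replicate 1 and 2.43 for replicate 2. Replicate 1 lay above both WT libraries in 39 of 40 members and replicate 2 in 37 of 40. The share of all tested genes that meets this looser rule for a single library was not computed. For both R1810A libraries together it was 19.8%. The 5 members of 180 bases or more, SNORA53, SNORA73B, SNORA74A, SNORA74B and SNORA23, had a median ratio of R1810A replicate 1 to replicate 2 of 3.93, against 1.42 for the 35 shorter ones. Across the members Spearman's rho of the fold change was 0.03 with the mean count and -0.16 with the length. The median log2 fold change was 2.77 in the 5 longer members and 1.82 in the 35 shorter ones. This difference was not tested. Other genes under 300 bases held 5.44% and 4.74% of counts in R1810A and 4.82% and 4.84% in WT. Of 107 such genes tested, 19 were called higher (17.8%) with a median log2 fold change of 0.74. Their part in the H/ACA values was not tested. In bulk RNA, more cells with these RNAs and more of the RNAs per cell cannot be told apart.

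Proteins that bind, assemble and trim H/ACA snoRNAs were taken from a list of 18 genes, all tested. None passed, by edgeR, limma-voom or DESeq2. By edgeR 1 was lower and none higher at an unadjusted p under 0.05, and the median log2 fold change was 0.07. DKC1, the gene of dyskerin, stood at 176 ± 16.7 CPM in R1810A and 149.7 ± 2.14 CPM in WT (log2 fold change 0.23, SE 0.12, adjusted p = 0.654). The other core proteins NOP10, NHP2 and GAR1 had log2 fold changes of -0.10, 0.23 and 0.18. NAF1 and SHQ1, which assemble the particle, had -0.19 and -0.03, and RUVBL1, an ATPase of the assembly complex, stood at 158 ± 3.42 CPM in R1810A and 197 ± 9.36 CPM in WT (log2 fold change -0.31, SE 0.11, adjusted p = 0.481). Factors of 3′ end trimming had 0.09 for PARN, 0.11 for TOE1, -0.10 for TENT4B, 0.15 for EXOSC10, -0.17 for EXOSC3 and 0.10 for DIS3. ZC3H8, a factor of small nuclear RNA transcription, had 0.63, the largest of the list (adjusted p = 0.654).

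Summed gene counts ran from 2081636 to 2991959 per library. All 8 B cell markers had reads, 14701 and 16431 in R1810A and 17430 and 18293 in WT. T cell and epithelial markers had 0 to 2 reads per library, and the monocyte list was carried by CSF1R, at 324 to 508 reads, with CD14 at 0 or 1. COL1A1, a fibroblast marker, had 6 and 13 reads in R1810A and 3 and 4 in WT. POLR2A, the gene of the replaced subunit, stood at 998 ± 64.4 CPM in R1810A and 865 ± 15.1 CPM in WT (adjusted p = 0.655). Vector and endogenous transcripts cannot be told apart in these counts, and the level is no check on the labels.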

How the data were processed

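RNA-seq of rRNA-depleted total RNA from 2 R1810A and 2 WT libraries was analysed. Per the submitters' processing notes, Bowtie and the hg19 build were used, with no versions given. The deposited files hold, per the file headers, a raw read count for each Ensembl gene, the gene length, the total reads and an RPKM value, which equals the count scaled by gene length and total reads. The sources used here give neither the counting program nor its annotation, its use of strand or its treatment of reads with several matches. Antisense and overlapping genes and near-identical copies are therefore uncertain.

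Symbols came from the identifier table supplied with the data and, where it gave none, from GENCODE release 29. Together they named 40926 of 51714 identifiers. Counts were filtered with filterByExpr, scaled with TMM and tested with edgeR 4.0.16 (R 4.3.3), with no term but the group and with Benjamini-Hochberg adjustment over all 10674 genes tested. SE values are the absolute log2 fold change divided by the square root of F. DESeq2 1.42.0, limma-voom (limma 3.58.1), other scalings, no filter, a replicate block and leaving out each library were alternatives. The script was tested on simulated data with known changes. Host genes, positions and sequences came from GENCODE release 29 on GRCh38, which is not the build of the alignment. Identities are from global alignment with Biopython 1.88 (match 1, mismatch -1, gap opening -2, extension -1). Shares carry 95% exact binomial intervals. Ribosomal RNA targets were assigned by hand where known with confidence. Named are the members past the threshold, the 10 most abundant, the 5 with the lowest fold changes, the 3 with the largest differences between R1810A libraries, multicopy families, and hosts of these. The values of 1 host gene are not reported here. The members and lists were chosen with earlier results of these data known. The deposited total reads ran from 4017398 to 5405229 per library.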

Additional observations from a re-analysis of the deposited data

How the results depend on the processing

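Of the 16 H/ACA snoRNA genes called higher, 11 passed under every other scaling, filter, tool and block tried, and without any single library except WT replicate 2. The count of members higher was 28 with no filter and 27 with the replicate block, and 1 to 32 when each library was left out. The count of families higher was 25 with no filter, 25 with the block and 1 to 28 with each library left out. Among all genes the count higher was 78 with no filter, 24 with limma-voom, 73 with the block and 2 to 113 with a library left out. The count lower was 5 with total reads as the scaling, 7 with no filter, 2 with DESeq2, 4 with the block and 0 to 40 with a library left out. The labels do not say that replicate numbers pair the libraries, and deviations of libraries with the same number correlated at -0.04 over 10674 genes. No member was called lower under any of the 10 alternatives. The median log2 fold change of the tested members stayed between 1.28 and 2.15 with a library left out, the lowest being without R1810A replicate 1, where SNORA74B reversed to -0.26 (range -0.26 to 3.09). The difference in share of counts was 0.0991 percentage points over the total reads, 0.115 without the 3 most abundant members, and 0.121 to 0.281 with a library left out. The snoRNA to host ratio was higher in both R1810A libraries in 52 of 77 pairs when every pair with a read was used. The cause of these shifts was not tested. With a library left out, the lone library of a group is assumed to vary like the other group. At 2 libraries per group the depth limits members with few reads, such as SNORA55 in WT.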
